A study of Mus musculus with 6 samples.

Results

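The genes described are 10 regulators of blood stem and progenitor cells, Gata2, Kit, Myb, Myc, Cd34, Spi1, Runx1, Lyl1, Meis1 and Erg, which are known to be turned down as erythroblasts mature. They were chosen by name, as genes of this role, from the 17463 genes in the deposited files. Earlier results of these samples, such as the fold changes between cholesterol and control, were known at that time, so the values of that comparison are given as a description. All 10 were present in the files, and 9 of them were among the 11277 genes with enough counts to be tested, Erg being the exception. RNA-seq was performed on mouse fetal liver erythroblasts of the C57BL/6J strain, with 3 control samples and 3 samples given 40 µM cholesterol for 30 h. The starting cells lacked TER119, which appears on the surface of erythroid cells during maturation. They were cultured in medium with erythropoietin (Epo), a hormone that drives red cell formation. Per the study's methods the TER119+ cells were sorted for sequencing. All 6 samples share the strain, the Epo medium and the culture time. The labels call the controls untreated and the study calls them vehicle-treated, and neither says whether the samples of a group came from separate embryos or pools, so p-values measure only the spread between these samples. The labels name no deleted or introduced gene.

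In stem and progenitor cells, the transcription factors that most of these genes encode keep genes of immaturity active. KIT, the receptor for stem cell factor, keeps early erythroid cells dividing. As erythroblasts mature, GATA1 takes the place of GATA2 at many sites in the genome, an exchange known as the GATA switch. The Gata2, Kit and Myb genes are then shut down, and MYC falls as the cells leave the cell cycle. Several of the 10 genes are also active in other cells. Gata2 and Kit are active in mast cells, and Spi1 in granulocytes and macrophages. Cd34 and Erg are active in endothelial cells, and Meis1, Gata2 and Erg in megakaryocytes.

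Library depth was even, with total expected counts between 19826849 and 20061724, so that the floor of 3 counts lay between 0.148 and 0.156 CPM (counts relative to library size, scaled by the TMM method). All 12 erythroid markers were above 3 counts in every sample, led by the globin gene Hba-a1, with summed levels from 156200 to 209370 CPM in control and from 140620 to 187060 CPM with cholesterol. This sum was lower with cholesterol in every pair, at 0.839, 0.939 and 0.893 of the control, and with the replicate number as block 4 of the 12 were lower and 1 was higher, where the background over all genes tested was 5.20% lower and 1.65% higher. Adult globin genes held 12.5% to 17.9% of the counts. The libraries differed by replicate number. Between the 3 numbers, tested together, 5220 genes differed (46.3% of those tested, adjusted p under 0.05 by edgeR's quasi-likelihood test with condition in the model). Results are therefore given with condition alone and also with a replicate block, in which same-numbered samples are compared. Values of single samples stand in the order of their numbers.

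Most of the regulators were lower on average with cholesterol. Of the 9 tested, 8 had a negative and 1 a positive log2 fold change, with a median of −0.61 against 0.01 over all genes tested, of which 47.9% had a negative one. With condition alone, edgeR called 0 of the 9 at an adjusted p under 0.05, where the background was 0.00887% of the genes tested in either direction. DESeq2, which gave an adjusted p for 8 of the regulators but not for Meis1, called 1, Gata2, where its own background was 0.298%. At an unadjusted p under 0.05 edgeR gave 2 of the 9 lower, Gata2 and Kit, where the background was 1.92%. With the replicate block, Gata2, Kit, Cd34, Spi1 and Lyl1 were lower and no regulator was higher, so 5 of 9 were called lower where the background was 5.20% lower and 1.65% higher. All cholesterol samples were below all controls for 2 of the 9, Gata2 and Kit, with a background of 4.28%. Within same-numbered pairs, 7 of the 9 were lower with cholesterol in all 3 pairs, with a background of 20.1%. Among genes averaging under 10 CPM, 4 of the 6 regulators were called lower with the block (background 8.58%), and at 10 CPM or more 1 of 3 was (background 3.31%). Because the genes were chosen with such results known, these counts describe them and are no independent evidence about them.

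**Figure D1:**
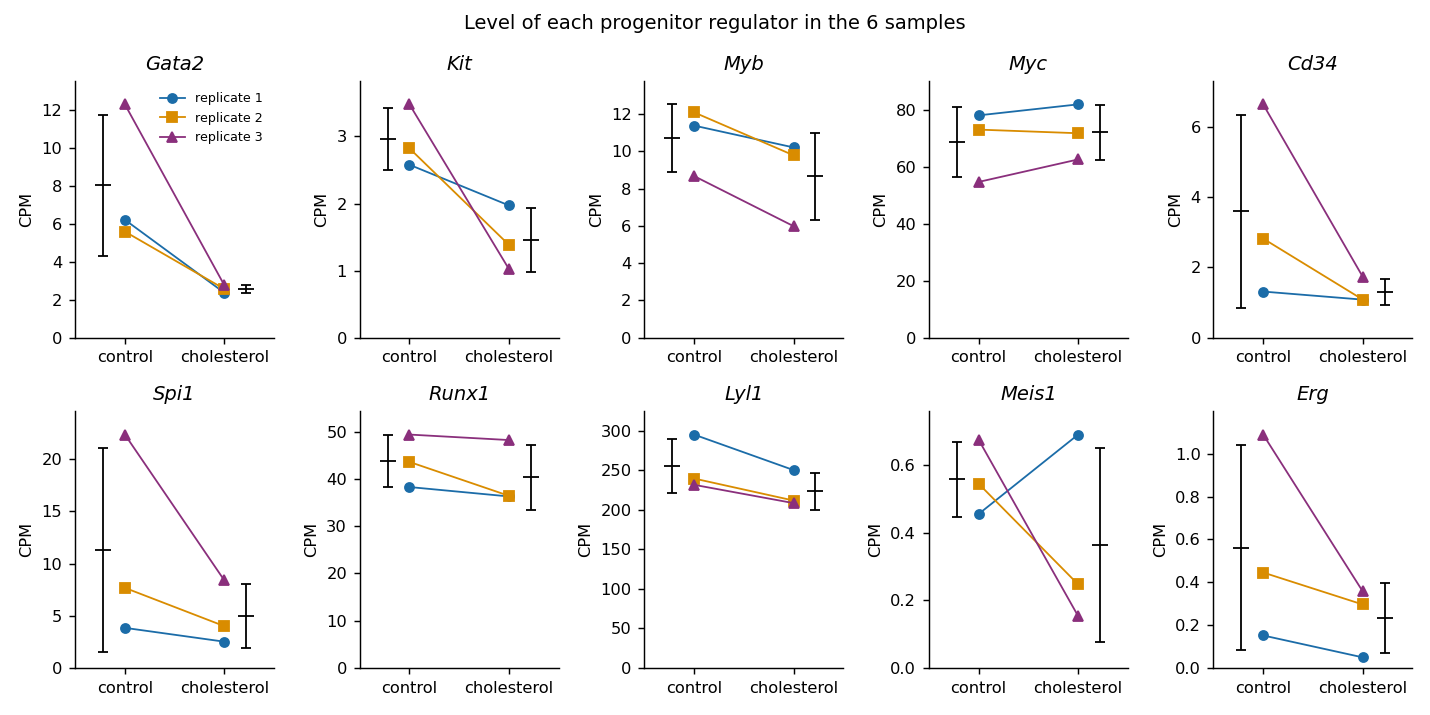
CPM of each of the 10 regulators (y axis, linear, from 0) in control and cholesterol samples. Points are single samples, lines join same-numbered samples, and the bars at the side show mean ± SD (n = 3). For Gata2 the cholesterol samples lie between 2.37 and 2.76 CPM, below all control samples, whereas for Myc, Runx1 and Lyl1 the groups overlap.

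Expression per transcript length differed widely among the regulators. On the FPKM scale (fragments per kilobase of transcript, scaled for depth), the mean level over the 6 samples was 134 ± 17.5 (SD) for Lyl1, 28.9 ± 4.63 for Myc, 6.44 ± 0.810 for Runx1 and 5.66 ± 5.01 for Spi1. Myb followed at 2.69 ± 0.644, Gata2 at 1.57 ± 1.08, Cd34 at 0.938 ± 0.801 and Kit at 0.415 ± 0.167. Meis1, at 0.155 ± 0.0689, and Erg, at 0.14 ± 0.112, were the lowest. Lyl1 was above Myc and Myc above Runx1 in all 6 samples without overlap of their ranges, whereas from Runx1 downwards the ranges of each gene and the next in order overlapped. Spi1 had the widest spread for its mean, from 1.85 to 15.38 FPKM, and it was below Runx1 in 5 of 6 samples. Gata2, Cd34 and Kit kept their order in every sample although their ranges overlapped. By comparison, the erythroid factor Gata1 lay between 262.28 and 281.76 FPKM.

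**Figure D2:**
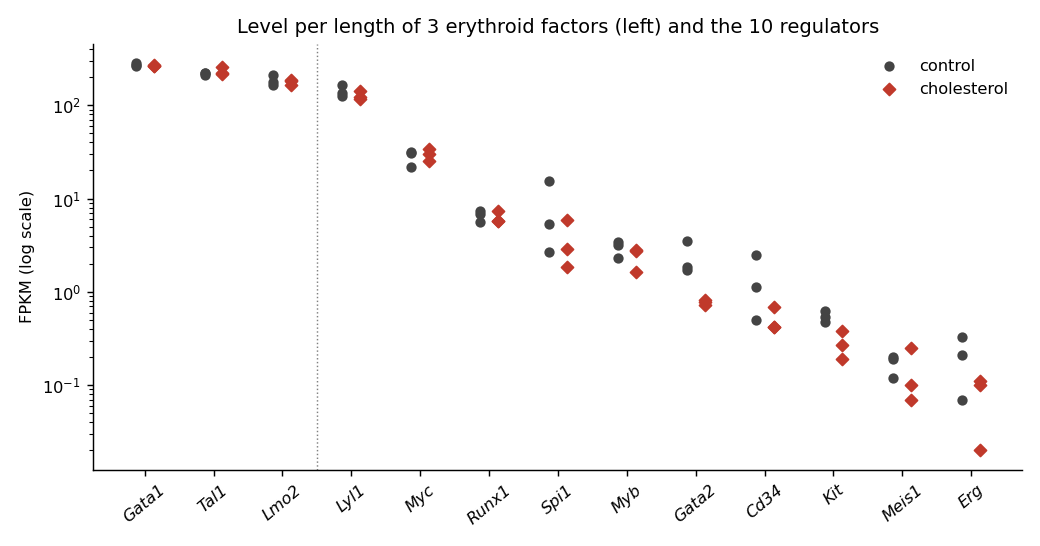
FPKM of the erythroid factors Gata1, Tal1 and Lmo2 (left of the dotted line) and of the 10 regulators in order of their mean, on a log axis, with 1 point per sample (circles, control; diamonds, cholesterol). Lyl1 (134 FPKM) and Myc (28.9 FPKM) stand above the other regulators, and the ranges of neighbouring genes overlap from Runx1 downwards.

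Gata2 encodes a zinc-finger transcription factor of stem cells, early progenitors and mast cells. It lies at chr6:88193891-88207032 (GRCm38.p6, plus strand). The windows of 250 bases before annotated start sites were read from RefSeq for the 8 of 10 regulators with an entry, 13 windows in all, without Myc and Spi1. The window before the upstream start site of Gata2, chr6:88193641-88193890, is printed because Gata2 had the largest log2 fold change of the 9 regulators tested. No letters are in capitals in it, since none of the motifs searched was present.
Gata2: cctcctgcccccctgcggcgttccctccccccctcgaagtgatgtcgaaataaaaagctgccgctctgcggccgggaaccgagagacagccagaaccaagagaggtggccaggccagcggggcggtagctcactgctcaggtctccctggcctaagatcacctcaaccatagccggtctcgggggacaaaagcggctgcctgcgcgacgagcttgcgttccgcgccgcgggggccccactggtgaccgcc
The motifs, on either strand, were AGATAA or TGATAA for GATA factors, GAGGAA for PU.1 and CACGTG for MYC and its partners. None of these motifs contains another. Of all 32841 RefSeq windows of this length, 16.6% held a GATA motif, 23.26% a PU.1 motif and 6.02% a CACGTG. Among the 13 windows of the regulators, the GATA motif was found in 1 (Erg), the PU.1 motif in 4 (both overlapping Kit windows, Lyl1 and a Runx1 window) and CACGTG in 1 (the same Runx1 gene). These matches describe letters and no site of binding. G and C made up 67.2% of the Gata2 window, where the median over all windows was 52.4%.

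Gata2 had 6.22, 5.60 and 12.3 CPM in controls 1 to 3 and 2.37, 2.57 and 2.76 CPM in the cholesterol samples. All cholesterol samples lay below all controls, and control 3 stood well above the other controls. The mean was 8.04 ± 3.71 CPM in control and 2.56 ± 0.197 CPM with cholesterol (SD, n = 3), a ratio of 0.320. With condition alone, the log2 fold change was −1.65 (standard error 0.34, unadjusted p = 0.00248, adjusted p = 0.9998, edgeR), and DESeq2 gave −1.65 with an adjusted p of 0.0133. With the replicate block, it was −1.59 (standard error 0.19, adjusted p = 6.97e-05, edgeR). The ratio of cholesterol to control was 0.380 (95% interval of counting error, 0.267 to 0.535) in pair 1, 0.459 (0.324 to 0.643) in pair 2 and 0.224 (0.164 to 0.303) in pair 3. The interval lay below 1 in each pair, and intervals here and for the other genes cover counting error only. Without pair 3 the blocked log2 fold change was −1.26 (adjusted p = 4.48e-07, edgeR). Without control 3 and with condition alone it was −1.20 (adjusted p = 0.346, edgeR). In a bulk sample, fewer cells of a type and less RNA per cell cannot be told apart.

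The Gata2 level was set against that of Gata1, which encodes the factor that replaces it. Gata1 transcripts per length outnumbered those of Gata2 by 153, 158 and 74.5 times in controls 1 to 3 and by 369, 339 and 320 times in the cholesterol samples. The log2 ratio of Gata2 to Gata1 (FPKM + 0.1) was −6.86 ± 0.591 in control and −8.24 ± 0.0937 with cholesterol (SD, n = 3). The groups did not overlap. The difference of −1.38 had a p of 0.10 in a two-sided exact permutation test, the smallest p that 3 samples against 3 allow. It was −1.16, −1.01 and −1.98 within pairs 1 to 3, and −0.85 with a pseudocount of 1 in place of 0.1. Gata1 itself spanned a narrow range on the FPKM scale in both groups, 263.07 to 281.76 in control and 262.28 to 269.25 with cholesterol.

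Mast cells are known to express both Gata2 and Kit, and their summed markers were lower with cholesterol in every pair, as Gata2 was. Of 10 mast cell markers 9 were in the files, 2 were above 3 counts in every sample, 6 were at 0 in at least 1 sample and Tpsb2 was at 0 in all. Their summed level was 3.49, 8.17 and 32.5 CPM in controls 1 to 3 and 1.33, 2.52 and 5.47 CPM in the cholesterol samples. The cholesterol samples were lower in every pair, at 0.382, 0.308 and 0.168 of the control. The most abundant of them, Hdc (histidine decarboxylase), spanned 1.72 to 13.4 CPM in control and 0.789 to 2.40 CPM with cholesterol. All 3 markers of this list that could be tested, Cpa3, Hdc and Mcpt8, were called lower with the block. The background was 5.20% over all genes tested and 8.58% among genes averaging under 10 CPM, as these 3 do. Mcpt8 encodes a basophil protease, so these markers do not separate mast cells from basophils. Gata2 and the mast cell sum were both highest in control 3. Control 2 was above control 1 for the sum (8.17 and 3.49 CPM) but below it for Gata2 (5.60 and 6.22 CPM). In cholesterol samples 1 to 3 the sum was 1.33, 2.52 and 5.47 CPM, whereas Gata2 lay between 2.37 and 2.76 CPM. Kit was 1.97, 1.38 and 1.02 CPM there. Megakaryocyte markers summed to 87.9 to 109 CPM in control and 83.3 to 94.8 CPM with cholesterol, with 9 of 9 above 3 counts in every sample. Of the 9, 7 had a negative fold change. The most abundant, Itga2b, an integrin chain of megakaryocytes, spanned 38.8 to 48.3 CPM in control and 32.1 to 37.5 CPM with cholesterol, without overlap, and was the only one called lower with the block (−0.28, adjusted p = 0.00538, edgeR). The part of these cells in the Gata2 difference was not tested.

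Of 11 partners and rivals of the GATA factors, all were tested, 6 with a positive and 5 with a negative fold change and a median log2 fold change of 0.01. None was called with condition alone. With the block, 1 of the 11 was higher and 1 lower, where the background was 1.65% higher and 5.20% lower. Ldb1, the bridging protein of the GATA1 complex, was higher (182 ± 21.0 CPM in control and 209 ± 28.5 with cholesterol, log2 fold change 0.20, adjusted p = 0.00611, edgeR). Fli1, an ETS factor of megakaryocytes and progenitors, was lower (3.07 ± 1.63 and 1.29 ± 0.618 CPM, log2 fold change −1.23, adjusted p = 0.00387, edgeR). It had 1.62, 2.77 and 4.83 CPM in controls 1 to 3 and 0.838, 1.04 and 1.99 CPM in the cholesterol samples. Fli1 was highest in control 3, as the mast cell sum was, and the part of other cells in its values was not tested. The smallest p with condition alone belonged to Fli1 and to Gfi1b, a repressor of progenitor genes, which had 270 to 300.0 CPM in control and 290.0 to 326 CPM with cholesterol.

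Kit encodes the receptor for stem cell factor, and it lies at chr5:75574987-75656722 (GRCm38.p6, plus strand). The part of its promoter window before the first annotated exon, chr5:75574737-75574915, is printed because Kit and Gata2 were the regulators whose groups did not overlap. Capitals mark GAGGAA, which began 223 bases before the start site.
Kit: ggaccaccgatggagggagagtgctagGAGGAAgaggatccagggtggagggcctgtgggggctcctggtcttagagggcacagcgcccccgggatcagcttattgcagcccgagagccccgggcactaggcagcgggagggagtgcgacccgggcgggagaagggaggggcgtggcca
The 250-base window was 70.8% G and C and held no GATA motif.

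Kit was low, at 51, 57 and 67 counts in controls 1 to 3 and 40, 28 and 20 counts in the cholesterol samples, or 2.58, 2.82 and 3.48 CPM and 1.97, 1.38 and 1.02 CPM. All cholesterol samples lay below all controls, and the gap was widest in pair 3. The mean was 2.96 ± 0.465 CPM in control and 1.46 ± 0.479 CPM with cholesterol (SD, n = 3). With condition alone the log2 fold change was −1.02 (standard error 0.31, unadjusted p = 0.0163, adjusted p = 0.9998, edgeR). With the block it was −1.02 (standard error 0.27, adjusted p = 0.0255, edgeR). The ratio was 0.765 (0.493 to 1.18) in pair 1, 0.490 (0.300 to 0.783) in pair 2 and 0.294 (0.169 to 0.490) in pair 3, so the counting interval of pair 1 included 1. The blocked call was lost without pair 2 (−1.03, adjusted p = 0.190, edgeR) or without pair 3 (−0.69, adjusted p = 0.171, edgeR).

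Of 11 genes of KIT signalling, all were tested, with 4 positive and 7 negative fold changes, a median of −0.08 on the log2 scale and none called with condition alone. With the block, 2 of the 11 were lower and 0 higher, where the background was 5.20% lower and 1.65% higher. Lyn, a Src-family kinase of blood cells, had 9.45, 11.1 and 21.3 CPM in controls 1 to 3 and 7.89, 6.96 and 10.3 CPM in the cholesterol samples. It averaged 14.0 ± 6.43 CPM in control and 8.39 ± 1.74 CPM with cholesterol (log2 fold change −0.69, adjusted p = 0.00709, edgeR). Lyn was highest in control 3, where the summed granulocyte (681 CPM) and macrophage (131 CPM) markers were also highest, and the part of those cells in the Lyn values was not tested. Pik3r1, a regulatory subunit of PI 3-kinase, differed by −0.19 (adjusted p = 0.0440, edgeR). Lyn and Sos1, an exchange factor for RAS, had the smallest p with condition alone, and Sos1 spanned 31.1 to 32.8 CPM in control and 30.5 to 39.6 CPM with cholesterol.

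Cd34 encodes a surface sialomucin of stem and progenitor cells and of endothelium, and it lies at chr1:194938821-194961292 (GRCm38.p6, plus strand). The part of its window before the annotated exon, chr1:194938571-194938818, is printed as that of the next regulator called with the block. It has no capitals since it held none of the motifs.
Cd34: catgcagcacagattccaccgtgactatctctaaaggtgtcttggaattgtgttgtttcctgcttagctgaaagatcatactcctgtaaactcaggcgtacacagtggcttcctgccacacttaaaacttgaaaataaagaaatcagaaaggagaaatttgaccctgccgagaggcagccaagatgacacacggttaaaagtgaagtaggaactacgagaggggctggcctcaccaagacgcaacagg
The 250-base window was 46.4% G and C.

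Cd34 had 1.31, 2.82 and 6.64 CPM in controls 1 to 3 and 1.08, 1.09 and 1.74 CPM in the cholesterol samples. Control 3 was far above the rest, and control 1 lay among the cholesterol samples, so the groups overlapped. The mean was 3.59 ± 2.75 CPM in control and 1.30 ± 0.377 CPM with cholesterol (SD, n = 3). The log2 fold change was −1.46 (standard error 0.61, adjusted p = 0.9998, edgeR) with condition alone and −0.67 without control 3. With the block it was −1.33 (standard error 0.28, adjusted p = 0.00880, edgeR). The ratios of cholesterol to control were 0.825, 0.385 and 0.262 in pairs 1 to 3. The blocked call was lost without pair 2 (−1.27, adjusted p = 0.124, edgeR) or pair 3 (−0.88, adjusted p = 0.145, edgeR). Endothelial markers, 2 of 6 of them above 3 counts in every sample and 4 at 0 in at least 1 sample, summed to 1.57 to 5.97 CPM in control and 1.23 to 3.02 CPM with cholesterol, with Pecam1 the most abundant. Their part in the Cd34 values was not tested.

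Other surface proteins of progenitors were also lower on average with cholesterol. Of 11 such genes 9 were tested, all 9 with a negative fold change and a median log2 fold change of −1.05, where the median over all genes tested was 0.01. Of the 9, 4 were lower in all 3 pairs, where the background was 20.1%. None was called with condition alone. With the block, 3 of the 9 were lower and 0 higher, where the background was 5.20% lower and 1.65% higher. Among genes averaging under 10 CPM, as most of these do, it was 8.58% lower. Ly6a, the stem cell antigen Sca-1, had 0.960, 4.21 and 19.3 CPM in controls 1 to 3 and 0.246, 0.889 and 6.13 CPM in the cholesterol samples (log2 fold change −1.82, adjusted p = 3.51e-06, edgeR). Csf2rb, a shared receptor chain for IL-3, IL-5 and GM-CSF, and Cd48, a surface protein of most white blood cells and of committed progenitors, had blocked log2 fold changes of −1.004 (adjusted p = 8.42e-04, edgeR) and −1.51 (adjusted p = 0.00739, edgeR). These 3 genes were highest in control 3, as Cd34 was and as were the summed granulocyte (71.5, 257 and 681 CPM in controls 1 to 3), macrophage (18.7, 42.7 and 131 CPM) and mast cell markers (3.49, 8.17 and 32.5 CPM). The 3 sums were also lower with cholesterol in every pair, and their part in the values of these surface proteins was not tested. Cd48 was among the 2 with the smallest p with condition alone.

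Spi1 (chr2:91082374-91115759, GRCm38.p6) encodes PU.1, an ETS factor that drives granulocytes and macrophages and is antagonistic to GATA1. It had 3.84, 7.68 and 22.4 CPM in controls 1 to 3 and 2.51, 4.0 and 8.38 CPM in the cholesterol samples. In both groups sample 1 was lowest and sample 3 highest, and control 1 lay below cholesterol 2 and 3. The mean was 11.3 ± 9.78 CPM in control and 4.97 ± 3.05 CPM with cholesterol (SD, n = 3). With condition alone the log2 fold change was −1.19 (standard error 0.73, adjusted p = 0.9998, edgeR), and −0.22 without control 3. With the block it was −1.10 (standard error 0.14, adjusted p = 1.35e-04, edgeR). Ratios within pairs 1 to 3 were 0.654 (0.450 to 0.945), 0.521 (0.393 to 0.686) and 0.375 (0.311 to 0.450), each below 1. Without pair 3 the blocked value was −0.81 (adjusted p = 0.00260, edgeR).

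The markers of the cells that PU.1 directs had the same order among the samples as Spi1. All 10 granulocyte markers, above 3 counts in every sample, summed to 71.5, 257 and 681 CPM in controls 1 to 3 and to 41.7, 112 and 285 CPM in the cholesterol samples, and Ngp was the most abundant of them. With the block 9 of the 10 were lower, where the background was 5.20%. It was 8.58% among genes averaging under 10 CPM and 3.31% at 10 CPM or more, and the list holds genes of both kinds. The 10 macrophage markers, 6 of them above 3 counts in every sample and 1 at 0 in at least 1 sample, summed to 18.7, 42.7 and 131 CPM and to 13.9, 20.3 and 61.7 CPM, and Cd68 was the most abundant. With the block, 5 of the 9 tested were lower and Cd5l was higher, where the background was 5.20% lower and 1.65% higher. Among genes averaging under 10 CPM, as most of these do, it was 8.58% lower. The cholesterol samples held 0.583, 0.435 and 0.418 of the control sum of granulocyte markers in pairs 1 to 3, and 0.746, 0.474 and 0.469 of that of macrophage markers. Whether these cells took part in the Spi1 difference was not tested. Of 8 B cell markers, led by Cd79b, 0 were above 3 counts in every sample, 7 were at 0 in at least 1 sample and none was tested, with sums of 0.455 to 5.81 CPM in control and 0.690 to 2.10 CPM with cholesterol. Hepatocyte markers, led by Afp, summed to 121 to 354 CPM and 83.7 to 296 CPM.

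**Figure D3:**
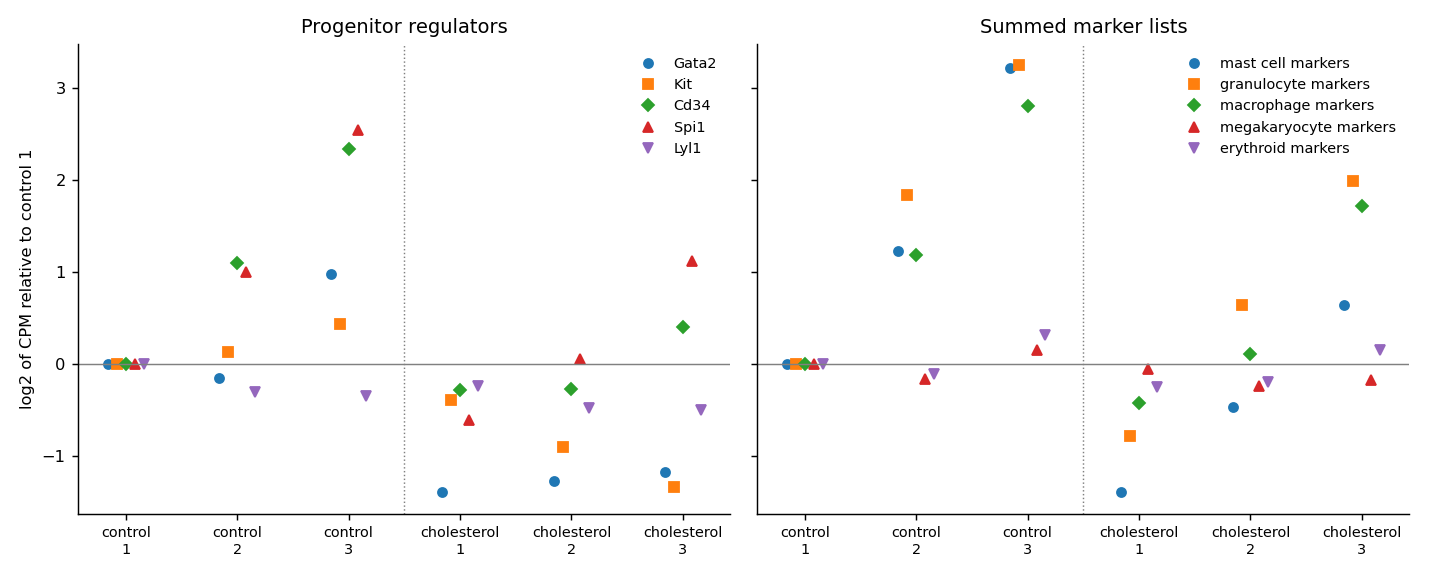
Log2 of CPM relative to control 1 in each sample for Gata2, Kit, Cd34, Spi1 and Lyl1 (left) and for the summed CPM of 5 marker lists (right), 1 point per sample. Spi1 and the granulocyte, macrophage and mast cell sums are all highest in control 3, whereas Lyl1 is highest in control 1.

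Lyl1, Runx1, Meis1 and Erg are transcription factors of the stem cell programme. Lyl1 encodes a basic helix-loop-helix relative of TAL1 and lies at chr8:84701423-84704716 (GRCm38.p6, plus strand), where it overlaps Nfix. The part of its window before the gene, chr8:84701207-84701422, is printed to set beside that of Kit. Capitals mark GAGGAA, which began 110 bases before the start site.
Lyl1: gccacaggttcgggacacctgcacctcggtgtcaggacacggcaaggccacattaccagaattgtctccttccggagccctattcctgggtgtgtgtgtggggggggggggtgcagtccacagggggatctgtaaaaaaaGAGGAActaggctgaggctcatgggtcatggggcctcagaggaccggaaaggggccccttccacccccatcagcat
The 250-base window was 60% G and C and held no GATA motif.

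Lyl1 was the most abundant of the regulators, with 295, 240 and 232 CPM in controls 1 to 3 and 250, 212 and 209 CPM in the cholesterol samples. Cholesterol 1 was above controls 2 and 3, so the groups overlapped. The mean was 256 ± 34.6 CPM in control and 224 ± 23.3 CPM with cholesterol (SD, n = 3), and the log2 fold change was −0.19 (standard error 0.12, adjusted p = 0.9998, edgeR). With the block it was −0.19 (standard error 0.04, adjusted p = 0.00830, edgeR). The log2 differences in the 3 pairs were −0.24, −0.18 and −0.15, with a mean of −0.19 and an SD of 0.04. Gata2 had a mean of −1.56 and an SD of 0.54, and Cd34 −1.20 and 0.84. Those 2 genes had far fewer counts (48 to 237 and 22 to 128) and larger differences, so the SDs are not on like terms. The blocked call of Lyl1 was lost without pair 1 (−0.16, adjusted p = 0.115, edgeR) or pair 2 (−0.20, adjusted p = 0.0663, edgeR). Nfix had 633 to 1042 counts, against 4081 to 5843 for Lyl1, and since the use of strand in counting is not stated, reads where the 2 genes overlap cannot be told apart.

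Runx1 (chr16:92601466-92826074, GRCm38.p6, minus strand), a core factor of definitive blood formation, had 38.3, 43.6 and 49.4 CPM in controls 1 to 3 and 36.3, 36.4 and 48.2 CPM in the cholesterol samples. The groups overlapped, and sample 3 was highest in each. The log2 fold change was −0.12 (standard error 0.15, adjusted p = 0.9998, edgeR) with condition alone. Meis1 (chr11:18880428-19019651, minus strand), a homeobox cofactor of stem cells and megakaryocytes, had 9, 11 and 13 counts in controls 1 to 3 and 14, 5 and 3 in the cholesterol samples. The highest and the lowest values of Meis1 were both in cholesterol samples. The log2 fold change, −0.61 (standard error 0.59, adjusted p = 0.9998, edgeR), rested on these few counts. Erg (chr16:95359169-95586600, minus strand), an ETS factor of stem cells and endothelium, had 3, 9 and 21 counts in control and 1, 6 and 7 in the cholesterol samples, too few to be tested. Erg was lower with cholesterol in each pair, with counting intervals that included 1 in pairs 1 and 2.

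Of 18 other transcription factors of stem and progenitor cells 13 were tested, 2 with a positive and 11 with a negative fold change and a median of −0.29 on the log2 scale. None was called with condition alone. With the block, 1 of the 13 was higher and 0 lower, where the background was 1.65% higher and 5.20% lower. Bcl11a, a repressor of embryonic globin genes, had 100.1, 101 and 105 CPM in controls 1 to 3 and 112, 109 and 125 CPM in the cholesterol samples, without overlap (log2 fold change 0.17, adjusted p = 0.0337, edgeR). Bcl11a was also among the 2 with the smallest p with condition alone.

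Myb (chr10:21124930-21160984, GRCm38.p6, minus strand) and Myc (chr15:61985341-61990361) encode factors that keep progenitors dividing. Myb had 11.4, 12.1 and 8.67 CPM in controls 1 to 3 and 10.2, 9.78 and 5.98 CPM in the cholesterol samples. It was lower with cholesterol in each pair, by 0.16, 0.31 and 0.54 on the log2 scale, and lowest in sample 3 of each group, so the groups overlapped. The log2 fold change was −0.31 (standard error 0.24, adjusted p = 0.9998, edgeR) with condition alone, and with the block it also did not pass the threshold (−0.32, adjusted p = 0.0874, edgeR).

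Myc had 78.1, 73.1 and 54.7 CPM in controls 1 to 3 and 82.0, 71.8 and 62.6 CPM in the cholesterol samples. The groups overlapped throughout, and the mean was 68.6 ± 12.3 CPM in control and 72.1 ± 9.68 CPM with cholesterol (SD, n = 3). The log2 fold change, 0.07 (standard error 0.16, adjusted p = 0.9998, edgeR), was the only positive one among the regulators, and it was −0.07 without control 3 and −0.03 without cholesterol 1. Of 9 genes of the MYC network 8 were tested, 3 with a positive and 5 with a negative fold change, a median of −0.04 on the log2 scale, and none called with condition alone or with the block. Mga and Mxi1, which compete with MYC for its partner MAX, had the smallest p with condition alone. Mga spanned 36.5 to 41.4 CPM in control and 39.1 to 44.8 CPM with cholesterol, and Mxi1 spanned 58.9 to 66.3 CPM and 63.0 to 67.3 CPM.

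**Figure D4:**
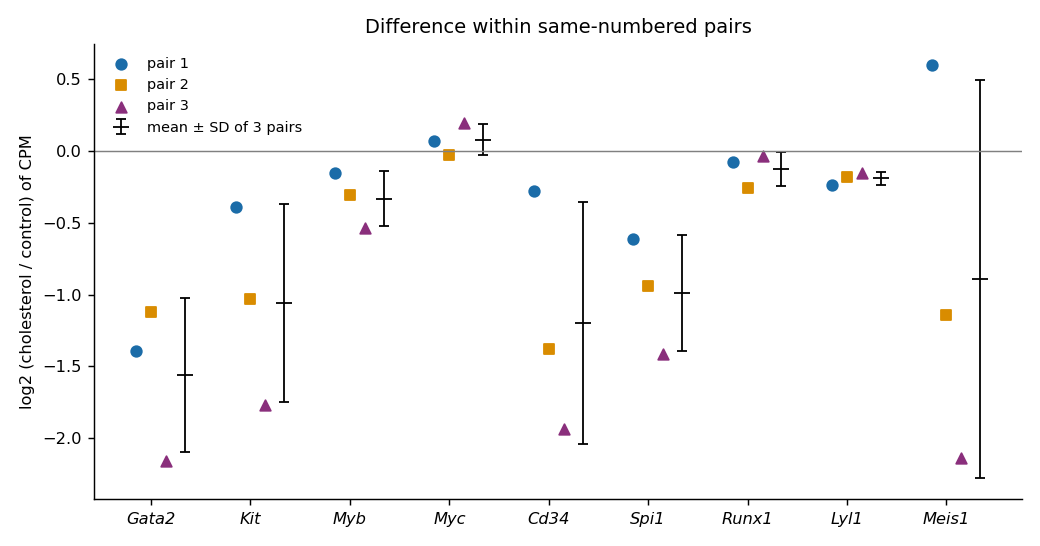
Log2 ratio of cholesterol to control CPM within each same-numbered pair, 1 point per pair, for the 9 regulators tested, with bars for the mean ± SD of the 3 pairs. Gata2, Kit, Cd34 and Spi1 each have their lowest point in pair 3, and the 3 points of Lyl1 lie close together at −0.24, −0.18 and −0.15.

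The regulators also differed by replicate number, which names the samples and has no order. With condition in the model, 7 of the 9 tested differed between replicate numbers at an adjusted p under 0.05, where the background was 46.3%, and Kit (adjusted p = 0.895, edgeR) and Meis1 (adjusted p = 0.673, edgeR) did not pass. Several of these calls depended on single libraries or on the tool. Between samples 3 and 1 the log2 difference was 2.21 for Spi1 (adjusted p = 7.15e-08, edgeR), 1.65 for Cd34 (adjusted p = 0.00228, edgeR), 0.72 for Gata2 (adjusted p = 0.0118, edgeR) and 0.39 for Runx1 (adjusted p = 5.26e-04, edgeR). These adjusted p-values test the 3 numbers together. Without control 3 the call was lost for Gata2 (0.15, adjusted p = 0.884, edgeR) and Cd34 (1.01, adjusted p = 0.148, edgeR), and without control 1 the Cd34 difference was 0.82. In the opposite direction it was −0.57 for Myb (adjusted p = 0.00188, edgeR), −0.45 for Myc (adjusted p = 4.79e-05, edgeR) and −0.31 for Lyl1 (adjusted p = 9.58e-05, edgeR). Myb was not called without cholesterol 3 (−0.43, adjusted p = 0.0549, edgeR), and DESeq2 called neither Myb (adjusted p = 0.0944) nor Gata2 (adjusted p = 0.206). Control 3 was the highest of all samples for 5 of the 9 regulators tested, Gata2, Kit, Cd34, Spi1 and Runx1, where the background was 24.4%. Erg was also highest there. Neither the labels nor the methods say what the numbers stand for.

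For the 3 regulators averaging at least 10 CPM, the genes with the most similar pattern over the 6 samples were sought among 7243 genes. Likeness was the root mean square difference of log2(CPM + 1) from its own mean. The nearest to Myc were Telo2 (0.0222), Vac14 (0.0234) and Gins2 (0.0282), against an SD of Myc itself of 0.213. Those nearest to Runx1 were Gnptg (0.0257), Otud5 (0.0315) and Ap3d1 (0.0339), and to Lyl1 they were Irf3 (0.0196), Treml2 (0.0306) and Nipsnap3b (0.0517). Telo2, which ran from 12.9 CPM in control 3 to 19.6 CPM in cholesterol 1, had its lowest and highest samples where Myc did. Irf3 was highest in control 1 (49.3 CPM) and lowest in cholesterol 3 (35.2 CPM), as Lyl1 was. These genes were picked for their likeness, so it is a description of 6 samples.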

How the data were processed

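RNA-seq of polyadenylated RNA, read as single-end 50-base reads, covered 3 control and 3 cholesterol samples, grouped by their labels. The authors deposited expected counts per gene, not normalized, of which 27.9% to 29.5% per sample were not whole. The authors also deposited normalized values, taken here as FPKM although no unit is named, because, with the counts, these imply a length within 20% of the range of annotated transcript lengths for 95.5% of 9637 genes at 1 FPKM or more. The submitters' processing notes name HISAT2 2.0.4, Bowtie2 2.2.5, RSEM 1.2.12, DESeq2 1.4.5 and GRCm38.p6, without their roles.

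Expected counts were rounded and tested with edgeR 4.0.16 in R 4.3.3 (filterByExpr with a count minimum of 10 and a total of 15, TMM, robust quasi-likelihood test, Benjamini-Hochberg adjustment over 11277 genes, threshold 0.05). CPM values are after TMM. Ratios within pairs have exact 95% intervals of counting error. DESeq2 1.42.0, limma 3.58.1 on log2(FPKM + 1) and log2(FPKM + 0.1), RLE scaling, TMM without globin genes, other filters and samples left out were the alternatives.

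Replicate numbers 1 to 3 in both groups come from the labels, which do not say what they mean. Deviations from the group means of same-numbered samples correlated at 0.729, 0.348 and 0.825 across genes, each above 0.1, and the numbers were taken to pair the samples. Control 1 and cholesterol 2 correlated at 0.346, about as high as pair 2, and control 2 and cholesterol 1 at 0.118. The mark of 0.1 therefore does not single out this pairing. The other samples of unlike number correlated negatively. Calls with the block rest on this pairing, which was taken from the same data. No libraries were copies (chi-square per degree of freedom at least 8.65).

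The regulators and the other gene lists were chosen with earlier results of these data known. All regulators are named. Of the other lists, genes called in either fit and the 2 with the smallest p with condition alone are named, except 2 genes that are not reported here, and of each marker list the most abundant. For each regulator averaging at least 10 CPM, the 3 nearest genes are named. Other marker genes named, Cpa3, Mcpt8, Cd5l and Tpsb2, were chosen after their values were seen. Promoter windows came from RefSeq on GRCm38.p6.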

Additional observations from a re-analysis of the deposited data

How the results depend on the processing

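With condition alone, 1 gene was higher with cholesterol and 0 were lower. DESeq2 gave 3 higher and 28 lower, and the replicate block 186 higher and 586 lower. With the block and a pair left out, 67 to 210 were higher and 229 to 703 lower (without pairs 1, 2 and 3, 118, 67 and 210 higher and 703, 229 and 516 lower). With 1 sample left out and condition alone, 1 was higher in each case and 0 to 7 were lower (7 without control 3). The 5220 genes that differed between replicate numbers were 3016 with DESeq2, 3203 without condition in the model and 4416 to 4927 with 1 sample left out.

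For the regulators, DESeq2 called Gata2 (−1.65), and the replicate block called Gata2 (−1.59), Kit (−1.02), Cd34 (−1.33), Spi1 (−1.10) and Lyl1 (−0.19). It changed no other call among the regulators. With the block and a pair left out, the called values were −1.69, −1.80 and −1.26 for Gata2 without pairs 1, 2 and 3, −1.24, −1.15 and −0.81 for Spi1, −1.38 for Kit and −1.70 for Cd34 without pair 1, and −0.21 for Lyl1 without pair 3. With 1 sample left out and condition alone, the log2 fold change lay between −1.85 and −1.20 for Gata2, −1.29 and −0.81 for Kit, −0.44 and −0.10 for Myb, −0.07 and 0.18 for Myc, −1.85 and −0.67 for Cd34, −1.79 and −0.22 for Spi1, −0.26 and −0.02 for Runx1, −0.28 and −0.07 for Lyl1 and −1.45 and −0.25 for Meis1. The direction turned for Myc alone, at −0.067 without control 3 and −0.03 without cholesterol 1. With limma on log2(FPKM + 1) and condition alone, the difference was −0.88 for Gata2, −0.28 for Kit, −0.57 for Cd34 and −0.04 for Meis1. These values lay outside the ranges with 1 sample left out, and those of the other regulators tested lay inside. None was called. The Gata2 to Gata1 difference lay between −1.56 and −1.04 with 1 sample left out and was −0.85 with a pseudocount of 1, −1.48 with 0.01 and −1.46 on CPM. Between samples 3 and 1, with 1 sample left out, the difference lay between 0.15 and 1.03 for Gata2, 0.82 and 2.24 for Cd34, −0.72 and −0.43 for Myb, and, neither of them called, −0.77 and 0.29 for Kit and −1.79 and 0.42 for Meis1. Of the calls between replicate numbers, 14 were lost over all alternatives: Gata2 and Cd34 without control 3, Myb without cholesterol 3, Gata2 and Myb with DESeq2, Gata2 with both limma pseudocounts, Cd34 and Runx1 with limma on log2(FPKM + 1), and Gata2, Myb, Cd34, Spi1 and Lyl1 without condition in the model. The causes were not tested. The counts of Meis1 and Erg limit any statement about them.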
